A study of Mus musculus with 6 samples.

Results

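Small nucleolar RNAs (snoRNAs) and small Cajal body RNAs (scaRNAs) were examined in total RNA of mouse embryonic stem cells (ESCs). They were chosen by name and level, as all gene symbols beginning with *Snord*, *Snora* or *Scarna* whose counts summed to at least 10 over the 6 libraries. Of 119 such symbols among the 23420 in the data, 101 passed, and these comprised 62 box C/D snoRNAs, 31 box H/ACA snoRNAs and 8 scaRNAs. The other 18 symbols held fewer than 10 counts, and 13 of them were listed at 0 in every library. Just outside the limit were *Scarna3b* with 6 and *Snord118* with 7 summed counts, and just inside were *Snord61* with 12 and *Scarna3a* with 18. The libraries came from E14, a male ESC line kept in LIF with 2i (MEK and GSK3 inhibitors), either wild type (WT, 3 libraries) or with a CRISPR knockout of *Patz1* (KO, *Patz1* -/-, 3 libraries), a gene for a zinc finger protein studied at chromatin boundaries. Both genotypes had the same parental line and medium. The study calls the libraries of a genotype biological replicates. Several KO clones had been made, and which clone or clones gave the libraries is not given in the sources used here, so p-values measure the spread between these libraries.

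Box C/D snoRNAs guide 2′-O-methylation of ribosomal RNA and carry a C box near the 5′ end and a D box near the 3′ end, on which the methyltransferase fibrillarin and the proteins NOP56 and NOP58 assemble. Box H/ACA snoRNAs guide pseudouridylation by dyskerin and end with an ACA box close to the 3′ end. A few of either kind act in cleavage of the ribosomal precursor instead, and scaRNAs guide the same modifications on spliceosomal RNAs in Cajal bodies. In mammals most of these RNAs are cut out of introns of host genes, many of which encode ribosomal proteins or serve mainly to carry snoRNAs.

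The RNAs on which the results turn are printed 5′ to 3′ as DNA letters of the RNA strand, from GENCODE transcripts on GRCm38 (mm10). Capitals mark TGATGA (C box) within the first 20 bases and CTGA (D box) within the last 20 bases of box C/D snoRNAs, and ACA within the last 10 bases of box H/ACA snoRNAs. The first 4 are the snoRNAs of *Rpl13a*, which include the one that differed between genotypes. *Snora15* and *Snora78* were among the 3 with the highest levels in replicate 3 relative to replicates 1 and 2, and *Snord17* was among the 3 with the lowest, both taken over RNAs with a mean of at least 50 normalized counts. *Snora61* and *Snora44* lie in one host, *Snhg12*. Their replicate 3 values differed in opposite directions from the mean of replicates 1 and 2. For *Snora44*, however, WT replicate 3 (288 normalized counts) lay above WT replicate 1 (212).
Snord34: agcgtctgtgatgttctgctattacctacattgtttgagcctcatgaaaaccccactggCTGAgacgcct
Snord32a: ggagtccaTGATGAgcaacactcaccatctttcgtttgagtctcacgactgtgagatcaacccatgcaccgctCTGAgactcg
Snord33: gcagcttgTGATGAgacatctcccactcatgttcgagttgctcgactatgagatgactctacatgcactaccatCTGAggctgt
Snord35a: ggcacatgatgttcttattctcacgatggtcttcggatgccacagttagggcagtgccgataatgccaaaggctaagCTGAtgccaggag
Snora15: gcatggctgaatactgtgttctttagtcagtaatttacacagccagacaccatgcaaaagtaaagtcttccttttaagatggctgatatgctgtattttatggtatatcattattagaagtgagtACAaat
Snora78: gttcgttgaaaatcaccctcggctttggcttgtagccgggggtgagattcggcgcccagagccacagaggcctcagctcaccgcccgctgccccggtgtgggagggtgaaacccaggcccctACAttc
Snord17: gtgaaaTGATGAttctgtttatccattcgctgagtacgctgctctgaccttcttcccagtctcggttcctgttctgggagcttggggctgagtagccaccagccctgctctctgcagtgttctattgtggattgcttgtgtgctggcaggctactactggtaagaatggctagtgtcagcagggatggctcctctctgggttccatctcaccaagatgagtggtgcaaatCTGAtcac
Snora61: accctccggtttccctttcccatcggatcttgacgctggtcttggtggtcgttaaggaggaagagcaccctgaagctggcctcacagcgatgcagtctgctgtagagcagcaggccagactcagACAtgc
Snora44: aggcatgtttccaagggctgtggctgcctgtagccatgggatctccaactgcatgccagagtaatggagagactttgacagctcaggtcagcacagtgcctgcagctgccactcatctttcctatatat
The 4 snoRNAs of *Rpl13a* lay on the minus strand at chr7:45126601-45126670 (*Snord34*), chr7:45127382-45127464 (*Snord32a*), chr7:45126864-45126947 (*Snord33*) and chr7:45126346-45126435 (*Snord35a*). *Snora15* lay at chr5:129794546-129794676 (plus strand, host *Cct6a*), *Snora78* at chr17:24719676-24719803 (minus strand, host *Snhg9*, opposite *Rps2*), and *Snord17* at chr2:144265979-144266216 (minus strand, host *Snx5*). *Snora44* (chr4:132309941-132310069) preceded *Snora61* (chr4:132310240-132310369) on the plus strand of *Snhg12*. Of the 62 box C/D snoRNAs, 38 (61.3%) held TGATGA in the window searched and 60 (96.8%) held CTGA, against 0.699% and 9.24% of 141515 annotated transcripts of at least 60 bases. Of the 31 box H/ACA snoRNAs, 29 (93.5%) held ACA in the window, against 14.4% of transcripts. *Snord34* itself and *Snord35a* held no TGATGA there, and *Snora44* as annotated held no ACA in its last 10 bases. The search covered the RNA strand only, and a missing match says only that these letters were not in the window.

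Depth was between 37573923 and 47721070 counts in replicates 1 and 2 and was 11040756 and 11420268 counts in replicate 3 of WT and KO. In replicate 3, *Rn45s*, the ribosomal precursor, took 14.4% (WT) and 12.5% (KO) of counts, against at most 3.03% elsewhere, and *Lars2* took 5.31% and 4.56%, against at most 0.162%. The targeted gene *Patz1* had 1838, 1983 and 1843 normalized counts in WT and 853, 862 and 862 in KO (log2 fold change -1.14, SE 0.10, adjusted p 1.58e-26, DESeq2). It lies on chromosome 11, most of whose genes had lower levels in KO (below). All 7 ESC markers examined had more than 50 normalized counts in every library. None of 5 primitive endoderm markers did so, and their summed level was 80.1 to 115 in WT and 83.0 to 106 in KO. Of 5 fibroblast markers 1 did, with summed levels of 119 to 164 in WT and 214 to 249 in KO, and their part in the differences between genotypes was not tested.

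Together, the 101 RNAs took a small share of each library. It was 0.180%, 0.184% and 0.203% of counts for replicates 1 to 3 of WT, against 0.192%, 0.195% and 0.208% for those of KO (95% Wilson intervals within 0.00266 percentage points, counting error only). The ranges of the genotypes overlapped (0.189% ± 0.0125 and 0.198% ± 0.00895, SD, n = 3 each, exact two-sided permutation p = 0.3, adjusted 0.6 over 4 shares tested). Within each of the 3 same-numbered pairs the KO share was the higher, by 0.0119, 0.0112 and 0.00541 percentage points (exact paired p = 0.25, the smallest that 3 pairs allow). Box C/D snoRNAs took 0.0633%, 0.0658% and 0.0690% of counts in WT and 0.0692%, 0.0716% and 0.0744% in KO. These groups did not overlap, but by a narrow margin, and the exact p was 0.1, the smallest that 3 against 3 libraries allow (adjusted 0.4). Within pairs the difference was 0.00587, 0.00573 and 0.00541 percentage points (exact paired p = 0.25). *Snord34*, the most counted box C/D snoRNA and higher in each KO library than in any WT library, is part of this share. It held 6759, 5453 and 1747 raw counts in WT and 8792, 9266 and 2357 in KO. The share without it was not computed, so the separation is not shown for the class apart from *Snord34*. Of the 55 box C/D snoRNAs with a mean of at least 10 normalized counts, 29 had log2 fold changes above 0 and 26 below (median 0.02). Box H/ACA snoRNAs took 0.0417%, 0.0532% and 0.0750% in WT and 0.0477%, 0.0504% and 0.0758% in KO (exact permutation p = 0.9), so that the highest share in each genotype was that of replicate 3. For scaRNAs the shares were 0.0746%, 0.0648% and 0.0590% in WT and 0.0747%, 0.0730% and 0.0582% in KO (exact permutation p = 0.9), with replicate 3 lowest in both. The totals include *Rn45s* and *Lars2*, which took more of replicate 3 and so lowered every other share there. In bulk RNA a change in the cells and a change in RNA per cell cannot be told apart.

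Counts were concentrated on a few RNAs. Normalized counts (counts divided by a size factor per library) averaged at least 1000 for 12 of the 101, at least 50 for 74 and at least 10 for 93, and the 10 most abundant held between 58.5% and 67.7% of all counts on the 101. *Scarna10*, a guide with both C/D and H/ACA domains, was first in every library and alone held 15.6% to 24.7% of them. Its normalized counts were 11740, 9110 and 9603 in WT and 11517, 11402 and 9910 in KO. *Scarna9*, a C/D guide for the U2 spliceosomal RNA, had 3685, 2942 and 3746 in WT and 3422, 3007 and 3179 in KO. *Scarna6*, which like *Scarna10* joins both kinds of domain, had 2298, 2124 and 2128 in WT and 2091, 2395 and 2088 in KO. The libraries of the genotypes overlapped for all 3 of these scaRNAs, and replicate 3 lay close to the others.

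Among snoRNAs, the most abundant were *Snord34*, *Snora78*, *Snord17*, *Snora74a*, *Snord22*, *Snord15b* and *Snora68*. *Snora74a*, also known as U19, had 1743, 1961 and 2341 normalized counts in WT and 1906, 2091 and 2452 in KO. *Snord22*, also known as U22 and needed for processing of the 18S precursor, had 953, 1393 and 2546 in WT and 1362, 1488 and 2920 in KO. For both, replicate 3 was the highest in WT and in KO. Levels between genes need a length, and the annotated lengths (64 to 414 bases in GENCODE, median 90) differed between GENCODE and RefSeq for 91 of the 101 RNAs. *Scarna10* is 325 bases in the former and 71 in the latter. Per kilobase of GENCODE length, the highest mean levels were those of *Snord34* (69490 normalized counts per kilobase), *Scarna9* (47573), *Snora78* (35187) and *Scarna10* (32452). Per kilobase of RefSeq length, they were those of *Scarna10* (148547), *Scarna9* (79289), *Snord34* (73701) and *Snora78* (28688). The same 4 RNAs thus led on both scales, in an order set by the annotation, and 9 (GENCODE) or 8 (RefSeq) of the 10 most counted RNAs were also among the first 10 per kilobase.

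**Figure D1:**
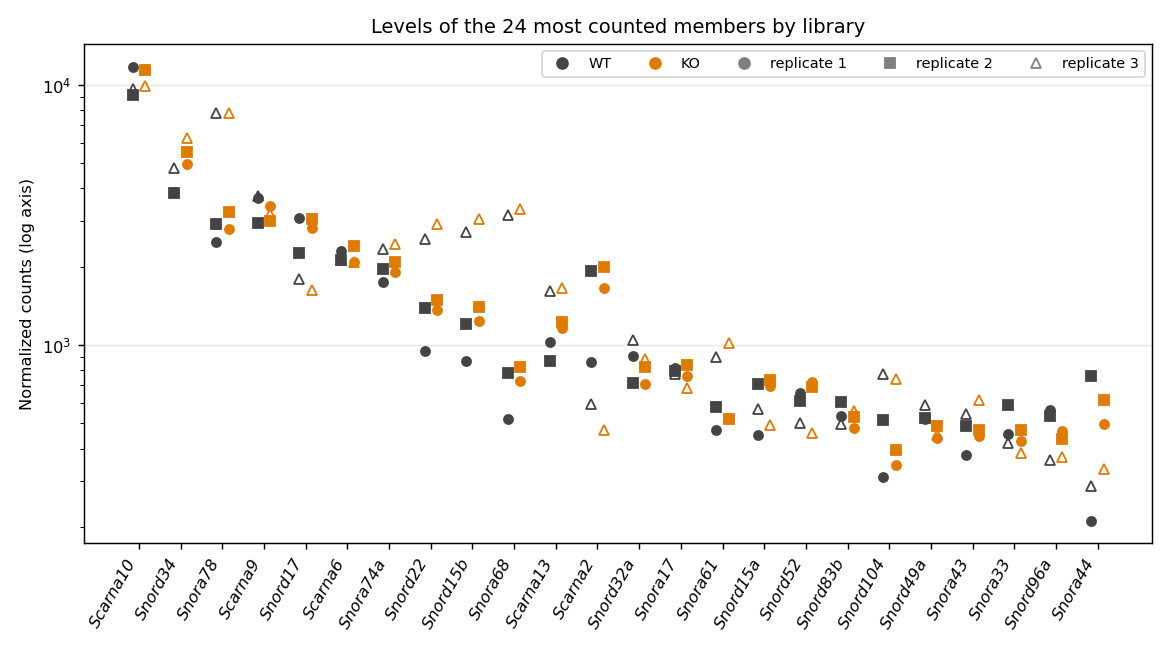
Normalized counts (log axis) of the 24 most counted snoRNAs and scaRNAs in each library, in order of their mean, with WT in grey, KO in orange and replicate 3 as open triangles. *Scarna10* leads in every library, *Snord34* is higher in each KO library than in any WT library, and *Snora78*, *Snord22*, *Snord15b* and *Snora68* stand higher in replicate 3 of both genotypes.

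To ask whether loss of *Patz1* changed the level of these RNAs, KO was compared with WT by the Wald test of DESeq2 fitted on all genes. Of the 98 RNAs with an adjusted p-value, 1 was under the threshold of 0.05, *Snord34*, and it was higher in KO. Over all 15309 genes tested the share under the threshold was 7.49% (2.7% higher and 4.78% lower). At an unadjusted p under 0.05 there were 5, *Snord34*, *Snord33*, *Snord87* and *Scarna17* with higher levels in KO and *Snora21* with lower, or 4.95% of the 101 RNAs against 13.9% of all 19404 genes with a count. WT and KO libraries were fully separated for 10 of the 93 RNAs with a mean of at least 10 (6 higher and 4 lower in KO), or 10.8%, against 26.1% of all genes at that level. The 4 lower ones were all on chromosome 11, where 28.6% of 14 RNAs were separated, against 40.1% of all genes there with a count. The median log2 fold change was 0.07 over the 93 RNAs (box C/D 0.02, box H/ACA 0.08, scaRNA 0.22), against 0.01 over all genes at that level, and single values lay between -0.54 and 0.71.

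*Snord34*, a box C/D guide in an intron of the ribosomal protein gene *Rpl13a*, had 3865, 3851 and 4783 normalized counts in WT and 4962, 5496 and 6229 in KO. Every KO library was above every WT library, though the lowest KO value was close to WT replicate 3. WT averaged 4166 ± 534 and KO 5562 ± 636 (SD, n = 3 each). The log2 fold change was 0.42 with an SE of 0.12, and the adjusted p was 0.0124 (DESeq2). The quasi-likelihood test of edgeR also called it and no other of these RNAs (adjusted p 0.0480, against 5.46% of all genes tested by edgeR). The call was lost without WT replicate 1 (log2 fold change 0.37, adjusted p 0.174, DESeq2), WT replicate 2 (0.36, 0.165), KO replicate 2 (0.43, 0.0825) or KO replicate 3 (0.33, 0.0927). It held without WT replicate 3 or KO replicate 1, and with replicates 1 and 2 alone (0.44, adjusted p 4.60e-05, DESeq2), where it was again the only one called and 8.77% of genes were. With the replicate number as a block, 3 RNAs were under the threshold, *Snord34* (log2 fold change 0.42, adjusted p 6.44e-10, DESeq2), *Snord15b* (0.30, 0.00471) and *Snord22* (0.27, 0.0204), all higher in KO, where 14.6% of all genes tested were under it.

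The other snoRNAs of *Rpl13a* did not pass the test. *Snord33* had 88.1, 121 and 93.1 normalized counts in WT and 157, 140 and 122 in KO (log2 fold change 0.48, SE 0.23, adjusted p 0.226, DESeq2), with WT replicate 2 just under the lowest KO library. *Snord32a* had 905, 715 and 1043 in WT and 707, 824 and 883 in KO (-0.14, SE 0.15, adjusted p 0.767, DESeq2). *Snord35a* had 156, 217 and 159 in WT and 199, 215 and 151 in KO (0.10, SE 0.21, adjusted p 0.900, DESeq2). The host *Rpl13a*, a protein of the large ribosomal subunit, had 76179, 71388 and 51465 in WT and 68804, 75674 and 53508 in KO (-0.01, SE 0.15, adjusted p 0.990, DESeq2). The libraries overlapped for *Snord32a*, *Snord35a* and *Rpl13a*, so that the difference in *Snord34* had no counterpart of that size in its host. A difference between *Snord34* and the others was not itself tested.

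**Figure D2:**
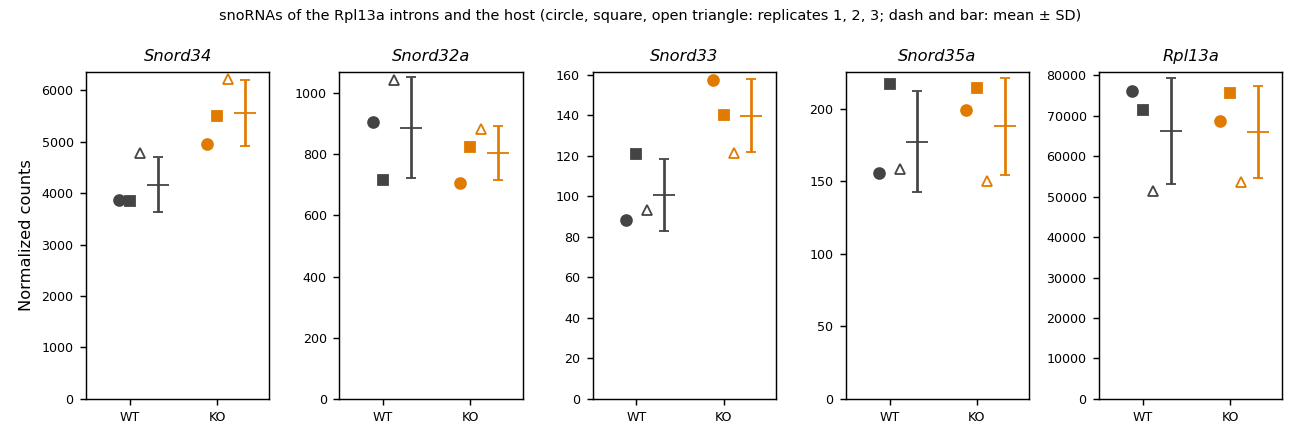
Normalized counts of the 4 snoRNAs of *Rpl13a* and of *Rpl13a* itself in the 3 WT and 3 KO libraries (linear axes from 0), with mean and SD beside the points. The KO libraries of *Snord34* lie between 4962 and 6229, above the WT libraries at 3851 to 4783, while WT and KO of *Rpl13a* overlap.

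Among RNAs with a mean of at least 50 normalized counts, those with the log2 fold changes farthest from 0 were *Snord82* (0.57, SE 0.42), *Snora69* (-0.54, SE 0.33), *Snord57* (0.53, SE 0.34), *Scarna17* (0.51, SE 0.20) and *Snord33*, and none of them passed (adjusted p 0.564, 0.436, 0.472, 0.114 and 0.226, DESeq2). *Scarna17*, a C/D-type Cajal body RNA, had 126, 189 and 164 normalized counts in WT and 240, 201 and 240 in KO, without overlap. *Snora69* on X had 84.6, 98.2 and 162 in WT and 50.2, 68.2 and 124 in KO, with its highest value in replicate 3 of both. Its host *Rpl39* differed by -0.70 on the log2 scale (SE 0.58, adjusted p 0.651, DESeq2), which rested on WT replicate 3 with 28402 normalized counts against 8226 to 10661 in the other 5 libraries. *Snord57*, in *Nop56*, had 62.9, 53.7 and 145 in WT and 109, 89.0 and 166 in KO. *Snord82*, in the nucleolin gene *Ncl*, had 30.3, 33.2 and 68.5 in WT and 45.1, 41.5 and 108 in KO. Both were highest in replicate 3, and their genotypes overlapped.

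The 3 most abundant scaRNAs had small differences with narrow errors. The log2 fold change was 0.11 for *Scarna10* (SE 0.12, 95% interval -0.12 to 0.34, adjusted p 0.763, DESeq2), -0.11 for *Scarna9* (SE 0.12, adjusted p 0.765) and 0.01 for *Scarna6* (SE 0.10, adjusted p 0.989). *Scarna2*, a guide for U2 outside any annotated host, varied more between libraries than between genotypes, with 863, 1926 and 591 normalized counts in WT and 1660, 1990 and 470 in KO (0.29, SE 0.75, adjusted p 0.922, DESeq2).

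All 14 RNAs on chromosome 11 with a mean of at least 10 normalized counts had log2 fold changes below 0, and none passed the test (DESeq2, 1 at an unadjusted p under 0.05, and none by edgeR). Their median was -0.24 and their range -0.42 to -0.04. *Snora21*, an H/ACA snoRNA in *Rpl23*, had 373, 448 and 512 normalized counts in WT and 346, 336 and 373 in KO, the last just under the lowest WT library (-0.33, SE 0.15, adjusted p 0.222, DESeq2). The other genes of the chromosome did the same. Of the 1195 at that level 87.5% were below 0, against 47.8% of all genes, with a median of -0.27, and 21.3% of those tested were under the threshold. When chromosome 11 was given its own scale in each library, a setting chosen after the data were seen, the median of the 14 RNAs was 0.02, with 6 below 0. This scale removes the median shift of the chromosome by construction. A median near 0 therefore shows only that the 14 RNAs were shifted about as much as the chromosome. On the other autosomes, the 77 RNAs had a median of 0.10, against 0.02 for all genes there. On X there were 3, *Snora69* (-0.54, SE 0.33), *Snora70* (0.13, SE 0.22) and *Snord61*, which had too few counts for an adjusted p-value. The median of all genes on X with a mean of at least 10 was 0.18. Of those tested on X, 23.7% were under the threshold (DESeq2).

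Of the 101 RNAs, 96 lay within a host gene on the same strand, 51 in an intron, 32 in an exon of a retained-intron transcript and 13 in another exon. *Scarna2*, *Scarna17*, *Snora17*, *Snora43* and *Snord104* had no such host. The hosts were 72 genes, and 22 of them, with 31 RNAs, encoded ribosomal proteins. *Nop56* (*Snord57*, *Snord110*) and *Nop58* (*Snord11*, *Snord70*) encode core proteins of the box C/D particle. Of the 68 hosts with counts, all with an adjusted p-value, 1 was lower in KO and none higher (DESeq2), against 4.78% and 2.7% of all genes tested. This was *Tbrg4* on chromosome 11, with 3782, 3456 and 3414 normalized counts in WT and 3054, 2705 and 2915 in KO (-0.30, SE 0.10, adjusted p 0.0374). With chromosome 11 on its own scale, which removes its median shift by construction, *Tbrg4* was at -0.03 (adjusted p 0.955, DESeq2). *Snora5c* within it differed by -0.04 (log2, SE 0.21). Over the 85 RNAs with a host value, the log2 fold changes of RNA and host correlated at Pearson's r 0.52 and Spearman's rho 0.43, as a description, since these points share libraries and often the host. They include RNAs of chromosome 11, which lay below 0 with their hosts, as did 87.5% of genes there. They also include *Snora69* with the lowest host value, that of *Rpl39* (-0.70), which rested on WT replicate 3. The correlation without chromosome 11 or without this pair was not computed, so it does not show that an RNA follows its own host. Reads of an unspliced host intron and of the RNA within it fall on the same bases and were not told apart.

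**Figure D3:**
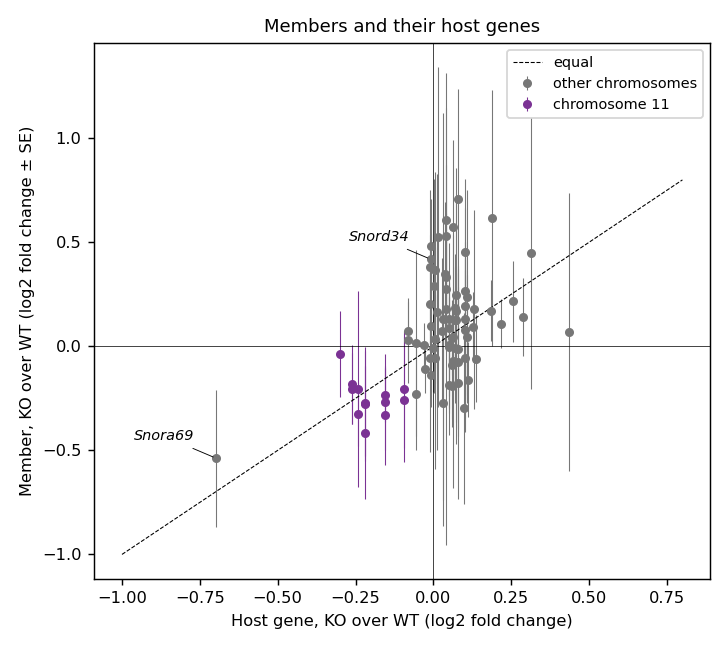
Log2 fold change (KO over WT) of each snoRNA or scaRNA with its SE against that of its host gene, with chromosome 11 in purple and a dashed line at equal values. *Snord34* lies at 0.42 over a host at -0.01, and the RNAs of chromosome 11 lie below 0 together with their hosts. *Snora69* lies at -0.54 beside *Rpl39* at -0.70, a host value that rested on WT replicate 3.

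The proteins that build these particles, and other RNAs of the same pathways, were taken from a list of 36 symbols, of which 35 were in the data. Of these, 2 were lower in KO and none higher (DESeq2), where 4.78% of all genes tested were lower and 2.7% higher, and the median log2 fold change was 0.09. *Coil* encodes coilin, the scaffold protein of Cajal bodies. It had 2663, 2389 and 2445 normalized counts in WT and 1740, 1830 and 2056 in KO (log2 fold change -0.42, SE 0.11, adjusted p 0.00225, DESeq2). *Wrap53* encodes TCAB1, which binds scaRNAs and telomerase RNA and brings them to Cajal bodies. It had 1060, 930.0 and 1030 in WT and 711, 722 and 859 in KO (log2 fold change -0.41, SE 0.12, adjusted p 0.0160, DESeq2). WT and KO did not overlap for either gene. Both lie on chromosome 11, and with that chromosome on its own scale the log2 fold changes were -0.15 (adjusted p 0.586, DESeq2) and -0.14 (adjusted p 0.735). That scale takes out the median shift of the chromosome by construction. Both calls were also lost without WT replicate 1 (adjusted p 0.0559 and 0.190, DESeq2), KO replicate 1 (0.0871 and 0.226) or KO replicate 2 (0.0533 and 0.200). In these 3 fits the log2 fold changes stayed at -0.37, -0.37 and -0.40 for *Coil* and at -0.37, -0.36 and -0.37 for *Wrap53*.

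The core proteins of the particles did not pass the test. Log2 fold changes were 0.12 for *Fbl* (fibrillarin), 0.04 for *Nop56* and 0.08 for *Nop58* of the box C/D particle (adjusted p 0.675, 0.909 and 0.854, DESeq2). In the box H/ACA particle they were 0.03 for *Dkc1* (dyskerin), 0.12 for *Nop10*, 0.23 for *Gar1* and -0.26 for *Nhp2* (adjusted p 0.927, 0.770, 0.361 and 0.0579, DESeq2), *Nhp2* being the only one of these 4 on chromosome 11. With the replicate block, 1 gene of the list was higher (*Gar1*, adjusted p 0.00792) and 5 were lower (*Coil*, *Wrap53*, *Nhp2*, *Znhit3* and *Npm1*, DESeq2), the 5 all on chromosome 11. Over all genes tested, on any chromosome, the block called 14.6%. *Terc*, the telomerase RNA, which ends in an H/ACA domain, had 985, 2077 and 964 normalized counts in WT and 1645, 1945 and 1054 in KO (0.21, SE 0.45, adjusted p 0.903, DESeq2). Its replicate 2 was high in both genotypes, as for *Scarna2*.

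Replicate 3 was next set beside replicates 1 and 2 of the same genotype, as a description with no test, since what the replicate number stands for is not given. Of the 93 RNAs with a mean of at least 10 normalized counts, 10 were at least 2-fold higher in replicate 3 in both genotypes, against 0.595% of all genes at that level. They were *Snora78*, *Snora68*, *Snora41*, *Snora75*, *Snora15*, *Snora2b*, *Snord22*, *Snord15b*, *Snord82* and *Snord66*. *Scarna2* alone was at least 2-fold lower in both, against 0.413% of all genes. Set against replicate 2 only, 9 were higher and 1 lower (0.567% and 0.659% of all genes). With CPM (counts scaled to the library total), where *Rn45s* and *Lars2* weigh on the totals of replicate 3, 5 were higher (*Snora78*, *Snord15b*, *Snora68*, *Snora15* and *Snord66*) and 1 lower (0.35% and 0.757% of all genes).

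*Snora15* had 41.7, 174 and 515 normalized counts in WT and 97.1, 151 and 579 in KO, a difference of replicate 3 from the mean of the others of 2.57 (WT) and 2.25 (KO) on the log2 scale. *Snora68* had 522, 783 and 3168 in WT and 729, 822 and 3340 in KO (2.31 and 2.11). *Snora78* had 2484, 2930 and 7779 in WT and 2785, 3245 and 7801 in KO (1.53 and 1.38). In all 3, replicate 3 of WT and of KO agreed more closely with each other than with any other library. The log2 fold changes between genotypes were 0.18, 0.13 and 0.07 (SE 1.13, 0.99 and 0.67, DESeq2). These errors include the replicate 3 difference. With the replicate block the log2 fold changes were 0.38, 0.21 and 0.11 (adjusted p 0.660, 0.129 and 0.295, DESeq2). *Cct6a*, host of *Snora15*, differed by -0.21 in WT and -0.21 in KO. *Snhg9*, host of *Snora78*, had at most 73.0 normalized counts in a library, differing by 0.26 and -0.55, and *Rps2* on the other strand by -0.33 and -0.39. Over the 85 RNAs with a host value, the differences of RNA and host correlated at rho 0.17 in WT and 0.24 in KO.

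At the other end, again among RNAs with a mean of at least 50 normalized counts, *Scarna2* differed by -1.12 in WT and -1.95 in KO. *Snord17*, the longest of the box C/D snoRNAs here, had 3073, 2253 and 1796 normalized counts in WT and 2820, 3053 and 1625 in KO (-0.55 and -0.85). *Snord35b*, a box C/D snoRNA, had 62.9, 89.7 and 49.3 in WT and 96.5, 74.1 and 47.6 in KO (-0.60 and -0.82). Replicate 3 held the lowest value of its genotype for each of the 3.

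The differences repeated between genotypes. Over the 74 RNAs with a mean of at least 50, those in WT and in KO correlated at Pearson's r 0.90 (rho 0.88) and had SDs of 0.71 and 0.69 on the log2 scale. For the 11524 genes at that level r was 0.68 and the SDs were 0.33 and 0.32. The sign was the same in both genotypes for 61 of the 74 (82.4%), against 74.8% of genes. These points share libraries and depth, so no p is given. The values of *Rn45s* and *Lars2* moved with replicate 3 as well, and their part in these differences was not tested.

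**Figure D4:**
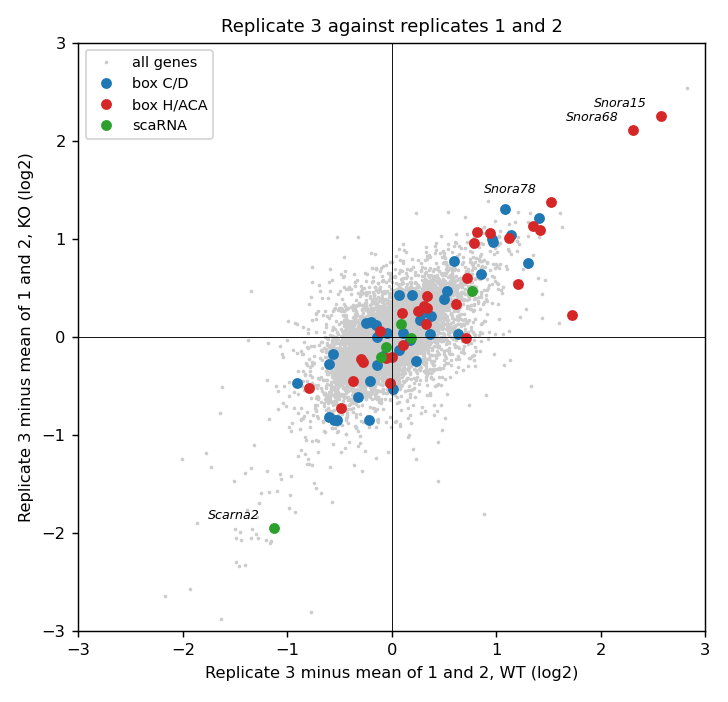
Log2 difference of replicate 3 from the mean of replicates 1 and 2, WT on the horizontal and KO on the vertical axis, for 74 snoRNAs and scaRNAs (coloured by class) over all 11524 genes with a mean of at least 50 normalized counts (grey, 2 of them beyond the axes). *Snora15*, *Snora68* and *Snora78* lie at the upper right and *Scarna2* at the lower left.

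By class, the median difference of replicate 3 in WT and KO was 0.11 and 0.03 for box C/D, 0.34 and 0.30 for box H/ACA, and -0.05 and -0.01 for scaRNAs, against -0.01 and -0.00 for all genes. Lengths here are those of GENCODE. Of the 36 RNAs of 100 to under 150 bases, 8 were among the 10 named above as higher in both genotypes (medians 0.49 and 0.29). So were 2 of the 49 shorter ones (0.09 and 0.03) and 0 of the 8 of 150 bases or more (-0.08 and -0.34). In RefSeq, *Snora78* is 157 bases, *Snora68* is 98 and *Scarna2* is 61, so these groups depend on the annotation. They were not recounted with RefSeq lengths. Class and length overlap. All 31 box H/ACA snoRNAs at that level were at least 100 bases long and 47 of the 55 box C/D snoRNAs were shorter. Within that range of 100 to under 150 bases, 6 of 28 box H/ACA and 2 of 7 box C/D snoRNAs were among the 10, the latter being *Snord22* and *Snord15b*.

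**Figure D5:**
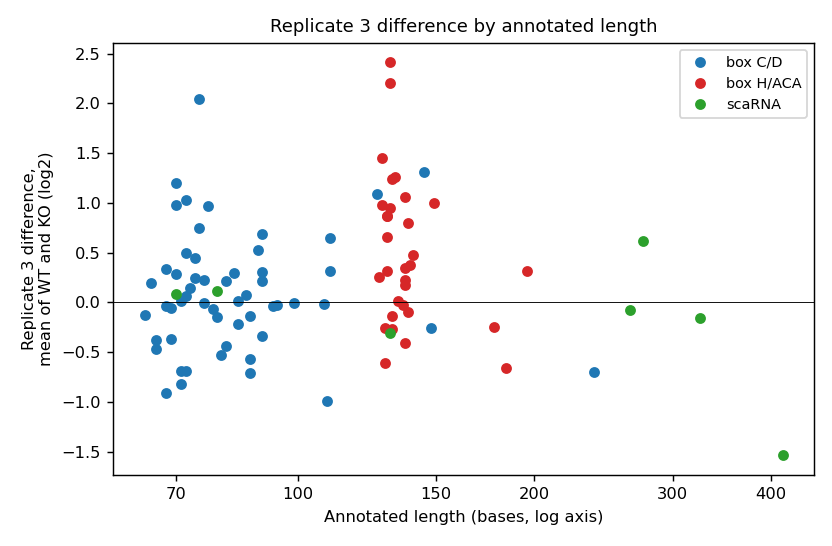
Log2 difference of replicate 3 from replicates 1 and 2, averaged over WT and KO, against annotated (GENCODE) length (log axis) for the 93 RNAs with a mean of at least 10 normalized counts, coloured by class. The spread is wide at each length and the highest values lie below 150 bases of GENCODE length. The lowest is *Scarna2*, the longest in GENCODE (414 bases) but 61 bases in RefSeq.

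RNAs from 1 transcript also differed. *Snhg12*, a host gene that carries snoRNAs, held 4, chosen here after their values were seen. In WT and KO, the replicate 3 difference was 0.79 and 0.96 for *Snora61*, 0.50 and 0.38 for *Snord99*, 0.09 and 0.24 for *Snora16a*, and -0.48 and -0.73 for *Snora44*, with *Snhg12* itself at 0.35 and 0.46. *Snora61* had 471, 580 and 904 normalized counts in WT and 526, 522 and 1017 in KO. *Snora44* had 212, 763 and 288 in WT and 499, 614 and 333 in KO. These neighbours thus held their highest value in different replicates. In *Rps3*, *Snord15b* had 870, 1204 and 2722 in WT and 1233, 1404 and 3052 in KO (1.41 and 1.21), and *Snord15a* had 451, 708 and 570 in WT and 694, 736 and 494 in KO (0.01 and -0.53).

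Replicates 1 and 2 differed from each other in WT. At least 2-fold more was found in WT replicate 2 than in WT replicate 1 for 10 of the 93 RNAs, against 1.44% of all genes, and for 0 in KO, against 1.06%. They were *Scarna2*, *Snora44*, *Snora15*, *Snora52*, *Snora34*, *Snora20*, *Snord55*, *Snord8*, *Snord89* and *Snord66*, and none of the 93 was at least 2-fold lower. Part of the list rests on few reads. Raw counts in WT replicate 1 were 3 for *Snord66*, 5 for *Snord89*, 14 for *Snord55* and 21 for *Snord8*, and 33 to 1509 for the others. *Snora52* had 148, 391 and 186 normalized counts in WT and 249, 354 and 217 in KO, so that WT replicate 1 was the lowest of the 6 libraries. Over all 93 RNAs, the median log2 difference of replicate 2 over replicate 1 was 0.28 in WT and 0.05 in KO, against -0.01 and -0.00 for all genes. Without WT replicate 1, the median log2 fold change between genotypes was -0.10 in place of 0.07, and none of the RNAs was under the threshold (DESeq2, 4 at an unadjusted p under 0.05), where 3.81% of genes were. Without WT replicate 2, *Snora44* alone was (0.99, adjusted p 0.00356, DESeq2, 4.29% of genes), and without WT replicate 3, *Snord34*, *Scarna13* and *Snord57* were, all higher in KO (8.8% of genes).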

How the data were processed

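RNA was sequenced from mouse ESCs, with 3 libraries each of WT and *Patz1* KO. Total RNA was purified on columns, and stranded libraries followed removal of ribosomal RNA. Columns and library size selection recover short RNAs in part only, so counts here are not cellular amounts. The authors deposited raw read counts per gene symbol, without normalization. The submitters' processing notes name TopHat2 2.1.1, Bowtie2 2.3.1.0, featureCounts 1.6.2, DESeq2 and mm10. The annotation behind the counts, the strand setting and the treatment of multiply mapped reads are not given in the sources used here, so the values of near-identical copies and of the 6 RNAs that overlap a gene on the other strand are uncertain. So are those of RNAs in host exons on the same strand, 32 in retained-intron transcripts and 13 in other exons, whose reads the host may share.

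KO was compared with WT by the two-sided Wald test of DESeq2 1.42.0 on all 23420 symbols (R 4.3.3, genotype alone, filtering optimised at 0.1, no shrinkage, Benjamini-Hochberg adjusted p under 0.05). Differences between replicates used log2(normalized count + 1) at a mean normalized count of at least 10. Shares were compared by exact permutation over libraries and, added later, over same-numbered pairs. Positions, hosts and sequences came from GENCODE M21 (GRCm38), in which all 101 RNAs were found. Members and lists were chosen with earlier results of these data known. Genes named are those under the threshold, the 10 most abundant, and, at a mean of at least 50, the 5 with the largest fold changes and the 3 highest and 3 lowest in replicate 3, with their hosts and list genes under the threshold. Others were named after their values were seen. Some hosts that this rule would name are not reported here.

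Alternatives were edgeR 4.0.16, TMM size factors, a filter of 10 counts in 3 libraries, testing without independent filtering, size factors without the members or from genes off chromosomes 11 and X, the replicate block, leaving out each library, replicates 1 and 2 alone and, added later, a scale of its own for chromosome 11. Same-numbered libraries were treated as pairs in the replicate block and the paired share test only, and not in the fit by genotype alone. Over 11524 genes, the deviations of WT and KO from their means correlated at 0.469, 0.619 and 0.684 for replicates 1 to 3. The titles share these numbers. All 15 pairs of libraries differed by more than sampling noise (chi-square over its degrees of freedom 9.50 or higher). Code was tested on simulated data.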

Additional observations from a re-analysis of the deposited data

How the results depend on the processing

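*Patz1* stayed lower in KO under every alternative, with log2 fold changes of -1.16 to -1.10 when 1 library was left out and -0.87 with chromosome 11 on its own scale. The number of RNAs under the threshold was 1 in the 8 other alternatives that used all libraries or replicates 1 and 2 alone, 3 with the replicate block and 0 to 3 when 1 library was left out (0 without WT replicate 1 and without either of KO replicates 2 and 3). *Snord34* ranged from 0.33 to 0.52 without 1 library, the call being lost in 4 of 6 cases. The block changed no other call among these RNAs than *Snord15b* and *Snord22*. Without 1 library, the median log2 fold change ranged from -0.096 to 0.099 over all RNAs, from -0.096 to 0.079 for box C/D, from -0.13 to 0.22 for box H/ACA and from 0.041 to 0.18 for scaRNAs, the last being 0.31 with replicates 1 and 2 alone. The summed share differed by 0.036 to 0.13 on the log2 scale. With CPM, the median replicate 3 difference was -0.0038 in WT and -0.022 in KO, where that of all genes was -0.18 and -0.13. Directions turned, without a call, when 1 library was left out for *Scarna2* (-0.079 to 0.92), *Scarna6* (-0.064 to 0.045), *Snora15* (-0.96 to 1.34), *Snora68* (-0.94 to 1.32), *Snora74a* (-0.0023 to 0.21), *Snora78* (-0.54 to 0.76), *Snord15b* (-0.27 to 0.87), *Snord17* (-0.093 to 0.30), *Snord22* (-0.19 to 0.71) and *Snord35b* (-0.13 to 0.39). *Scarna6* was also -0.010 with size factors off chromosomes 11 and X. The cause of these changes was not tested. With 11040756 and 11420268 counts, replicate 3 limits the precision of the rarer RNAs, of which 12 were at 3 counts or fewer in at least 1 library.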

Other observations

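MicroRNA symbols (*Mir*), another class of short RNA, were set beside the snoRNAs and scaRNAs. Of 186 with at least 10 summed counts, 69 had a mean of at least 10 normalized counts. In replicate 3, 5 of these were at least 2-fold higher and 5 at least 2-fold lower than replicates 1 and 2 in both genotypes, where 10 of 93 snoRNAs and scaRNAs were higher and 1 lower. None of the 109 with an adjusted p-value was under the threshold between genotypes (DESeq2, 8 at an unadjusted p under 0.05 among all *Mir* symbols with a count). Their median log2 fold change was -0.05. A gene of this name counts reads of the hairpin and of any host transcript over it, not mature microRNAs.

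*Rmrp* and *Rpph1*, the RNAs of the RNase MRP and RNase P particles that process ribosomal and transfer RNA precursors, held more counts than any snoRNA. *Rpph1* had 747653, 1017190 and 613026 normalized counts in WT and 856670, 1154900 and 548153 in KO (log2 fold change 0.11, SE 0.34, adjusted p 0.938, DESeq2). *Rmrp* had 299744, 466313 and 352920 in WT and 394156, 584061 and 287828 in KO (0.18, SE 0.33, adjusted p 0.886). Both were highest in replicate 2 of each genotype, as were *Scarna2* and *Terc*.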
